A study of Mus musculus with 12 samples.

Results

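Glycogen metabolism genes were examined in isolated fibers of the extensor digitorum longus (EDL), a fast muscle of the hindlimb. The group consisted of 9 genes chosen by name for their part in making or breaking down glycogen, and all 9 were found among the 55367 gene symbols listed for each sample. Each also passed the filter on low values, among 14426 genes tested. The 9 genes and the further pathway genes below were chosen with earlier results of these data known. Their counts beside those of all genes are therefore a description. RNA was measured in 12 samples of mouse myofibers, with 4 samples in each of 3 groups. Young fibers came from mice of 3–4 months. The other two groups came from aged mice of 26–28 months, whose fibers were loaded with Fluo-4, a dye that fluoresces when it binds Ca2+, and parted under a fluorescence stereomicroscope into Fluo-4 normal fibers, with the usual staining, and Fluo-4 abnormal fibers, with aberrant and brighter staining and with structures resembling tubular aggregates. The labels name no transgene and no drug for any group. Fluo-4 staining was done in a solution with 10 mM glucose. The study's methods do not say whether the Young fibers used for RNA were stained or sorted as well. If they were not, handling and age cannot be told apart. The study described the abnormal fibers in aged male mice and hardly found them in aged females. The young mice were C57BL/6J from a commercial supplier and the aged mice came from the colony of a research center, so that age and source cannot be told apart. How many fibers or mice stood behind a sample was not stated, and the p-values therefore measure the spread between these samples, which may be technical.

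Glycogen is the branched glucose store of muscle, drawn on during contraction and refilled at rest. Its synthesis runs from UDP-glucose, made by the enzyme encoded by Ugp2, through a protein primer, glycogenin (Gyg), to chain elongation by glycogen synthase (Gys1) and branching by the branching enzyme (Gbe1). Its breakdown is carried out by muscle glycogen phosphorylase (Pygm), which is switched on by phosphorylase kinase, a complex with regulatory alpha (Phka1) and beta (Phkb) subunits, a catalytic gamma subunit (Phkg1) and a Ca2+-binding subunit. Ppp1r3a encodes the muscle subunit that brings protein phosphatase 1 to glycogen, where it activates the synthase and inactivates phosphorylase and its kinase. Both Ca2+ and fiber type therefore bear on this pathway, fast fibers being the ones that rely on it most.

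Expression was given as TPM, a share of the RNA of each sample corrected for transcript length and scaled to a total of 1000000. Since TPM is a share, more of a transcript per fiber and less of the other RNA cannot be told apart. Between 16841 and 17936 symbols were above 0 in a sample, and the correlation of replicates within a group was 0.976 to 0.993 over 5994 genes. The summed level of 5 myofiber markers was 112483–152487 TPM, as the label of the samples requires, whereas the 4 satellite cell markers summed to no more than 1.22 TPM and the 4 immune markers to no more than 2.95 TPM. Erythroid markers reached 33.1–121 TPM in Young, 119–482 TPM in Fluo-4 normal and 44.4–236 TPM in Fluo-4 abnormal samples. Of 4 adipocyte markers, Adipoq, Plin1 and Lep were at 0 in all samples, and Fabp4 was at 15.4–28.6 TPM in Young, 32.7–109 TPM in Fluo-4 normal and 8.28–64.4 TPM in Fluo-4 abnormal samples, so that Young and Fluo-4 normal did not overlap. The 4 Schwann cell markers summed to 0.773–1.81 TPM in Young, 1.32–6.33 TPM in Fluo-4 normal and 3.41–7.64 TPM in Fluo-4 abnormal samples, without overlap between Young and Fluo-4 abnormal. The 4 fibroblast markers were at 18.0–33.0, 23.1–77.9 and 13.2–58.4 TPM in the same order of groups. The 4 endothelial markers summed to 2.31–5.27 TPM in Young, 3.32–9.25 TPM in Fluo-4 normal and 1.54–5.72 TPM in Fluo-4 abnormal samples. The 4 smooth muscle markers had a median sum of 1.82 TPM in Young, but Young replicate 2 was far higher. It held 37.1 TPM of Acta2 and 15.3 TPM of Tagln, which reached at most 4.13 and 2.17 TPM in the other samples. Smooth muscle sums were 1.09–4.79 TPM in Fluo-4 normal and 1.09–6.12 TPM in Fluo-4 abnormal samples. The part of these transcripts from other cells in the results was not tested. Fluo-4 normal replicate 1 stood apart, with a scaling factor of 0.809 against 0.908–1.17 in the other 11 samples, and values without that library are given where they change a result.

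The sequences upstream of 5 of these genes are shown because 4 of them moved together and the other one, Ugp2, moved against them in the comparison of the aged fibers. Each is the 250 bases before the start site in RefSeq (build GRCm38.p6), and capitals mark the E-box CANNTG, the short site read by the myogenic bHLH factors among others.
Pygm, chr19:6384158-6384407, plus strand: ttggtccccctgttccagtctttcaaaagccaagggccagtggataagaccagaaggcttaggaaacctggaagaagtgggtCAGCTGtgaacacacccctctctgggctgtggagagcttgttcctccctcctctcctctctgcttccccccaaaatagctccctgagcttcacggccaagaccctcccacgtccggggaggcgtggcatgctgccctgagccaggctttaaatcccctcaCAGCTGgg
Phkg1, chr5:129879089-129879338, minus strand: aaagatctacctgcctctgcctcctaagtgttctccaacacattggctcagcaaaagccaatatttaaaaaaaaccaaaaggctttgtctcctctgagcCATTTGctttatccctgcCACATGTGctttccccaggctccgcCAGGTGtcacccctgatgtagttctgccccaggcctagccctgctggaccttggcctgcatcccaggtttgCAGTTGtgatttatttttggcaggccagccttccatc
Phka1, chrX:102644247-102644496, minus strand: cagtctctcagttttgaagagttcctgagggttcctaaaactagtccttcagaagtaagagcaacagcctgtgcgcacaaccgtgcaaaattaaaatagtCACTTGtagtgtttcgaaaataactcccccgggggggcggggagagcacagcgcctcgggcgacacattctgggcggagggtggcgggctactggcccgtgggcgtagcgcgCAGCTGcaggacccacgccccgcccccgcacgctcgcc
Phkb, chr8:85840738-85840987, plus strand: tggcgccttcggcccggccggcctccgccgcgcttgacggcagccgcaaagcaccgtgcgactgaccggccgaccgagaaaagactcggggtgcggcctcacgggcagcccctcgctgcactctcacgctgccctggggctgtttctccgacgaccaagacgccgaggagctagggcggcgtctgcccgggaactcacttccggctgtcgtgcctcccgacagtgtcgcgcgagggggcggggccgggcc
Ugp2, chr11:21371268-21371517, minus strand: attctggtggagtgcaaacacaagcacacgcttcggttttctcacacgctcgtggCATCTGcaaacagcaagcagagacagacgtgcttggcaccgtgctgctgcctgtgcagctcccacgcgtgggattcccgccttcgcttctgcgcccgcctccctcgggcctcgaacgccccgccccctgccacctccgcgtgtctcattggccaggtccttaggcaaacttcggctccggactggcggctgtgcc
Pygm held 2 E-boxes in this window, Phka1 also 2, Phkg1 5, of which a pair overlap, Ugp2 1 and Phkb 0. Ugp2 has another start site in RefSeq, with the window chr11:21370630-21370879, which is not shown and also held 1 E-box. On either strand, CANNTG occurred upstream of 8 of the 9 genes and in 66.2% of all 32851 promoters of that length. The MEF2 motif was present in 1 of the 9, Ppp1r3a, and in 1.69% of all promoters. TATAAA, which can overlap an AT-rich motif such as that of MEF2, was found upstream of the same gene and in 12.4% of all promoters, and TNAAGGTCA, the site of estrogen-related receptors, in none of the 9 and in 1.14% of all.

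Breakdown stood far above synthesis in level, owing to Pygm. Averaged over the 12 samples, Pygm ranked 31 of the 14426 genes tested, with 3863 TPM. Ugp2 ranked 209, Phkg1 330, Gyg 389, Phkb 451, Phka1 489 and Gys1 548. Ppp1r3a ranked 1215 and Gbe1 was the lowest of the 9, at rank 1812. Together the 9 genes made up 0.570% ± 0.038 of the TPM in Young, 0.486% ± 0.050 in Fluo-4 normal and 0.591% ± 0.036 in Fluo-4 abnormal fibers (SD, n = 4 in each group).

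**Figure D1:**
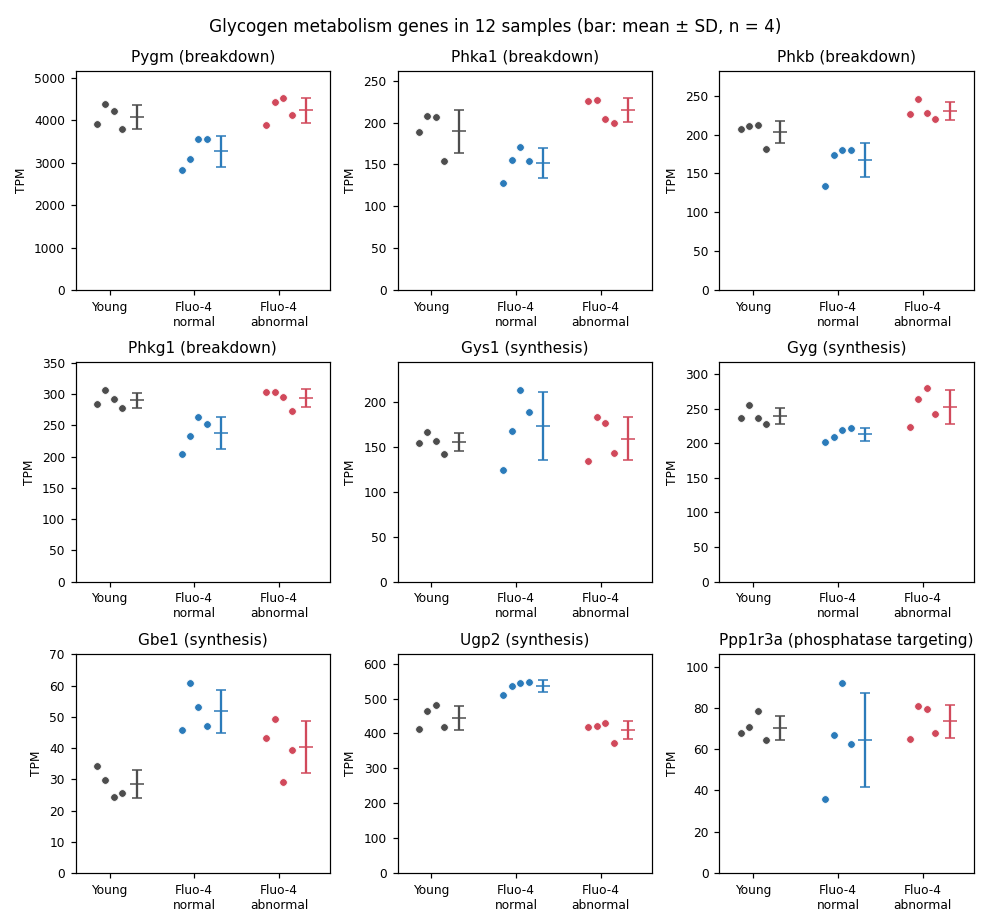
TPM of the 9 genes (y axis, from 0) in each of the 12 samples, as points by group, with the mean and SD (n = 4) beside them. The 4 breakdown genes are lowest in the Fluo-4 normal fibers, with Pygm between 2839 and 3565 TPM there and between 3882 and 4520 TPM in the Fluo-4 abnormal fibers, whereas Ugp2 is highest in the Fluo-4 normal fibers.

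Pygm (chr19:6430569-6448538, GRCm39) encodes the enzyme that releases glucose 1-phosphate from glycogen. Its level was 3925, 4397, 4219 and 3785 TPM in the 4 Young samples, 2839, 3098, 3564 and 3565 TPM in Fluo-4 normal and 3882, 4427, 4520 and 4132 TPM in Fluo-4 abnormal samples. Every Fluo-4 normal sample thus lay below every sample of the other two groups, which overlapped. Between the aged groups, Pygm rose by 0.38 on the log2 scale (SE 0.09, limma adjusted p = 0.023), the means being 3266 ± 360 TPM in normal and 4240 ± 291 TPM in abnormal fibers. Against Young, the change was -0.33 in the normal fibers (adjusted p = 0.12) and 0.05 in the abnormal fibers (adjusted p = 0.77). The fall in the normal fibers passed under 2 of the 22 alternatives, among them the block on the replicate number of the aged samples. The rise between the aged groups did not pass when any of 4 libraries was left out, with adjusted p = 0.058 without Fluo-4 normal replicate 1, 0.061 without Fluo-4 normal replicate 2, 0.071 without Fluo-4 abnormal replicate 2 and 0.059 without Fluo-4 abnormal replicate 3. It was 0.15 (adjusted p = 0.51) with TMM-type factors, which set the bulk of genes equal between samples. In all, the Pygm call was lost under 8 of the 22 alternatives run. These included scaling without mitochondrially-encoded genes, the aged groups fitted alone and the Myh4 share as a covariate.

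The regulatory subunits of phosphorylase kinase were both higher in abnormal than in normal fibers. Phka1 (chrX:101554986-101688874), the alpha subunit, was at 188, 208, 207 and 154 TPM in Young, 128, 155, 170 and 154 TPM in Fluo-4 normal and 226, 227, 205 and 200 TPM in Fluo-4 abnormal samples. The aged groups did not overlap, while Young covered part of the range of each. Phka1 rose from 152 ± 17.6 to 214 ± 14.2 TPM in the abnormal fibers, by 0.50 on the log2 scale (SE 0.10, adjusted p = 0.011). Phkb (chr8:86567133-86790889), the beta subunit, measured 207, 212, 213 and 182 TPM in Young, 134, 174, 180 and 181 TPM in Fluo-4 normal and 227, 246, 228 and 219 TPM in Fluo-4 abnormal samples. For Phkb the 3 groups formed a full order without overlap, normal below Young below abnormal, although the lowest Young sample, at 181.9 TPM, came close to the highest normal sample, at 180.6 TPM. The rise from normal to abnormal was 0.47 (SE 0.09, adjusted p = 0.0087), and it was 0.37 (adjusted p = 0.0093) without Fluo-4 normal replicate 1, the library with the lowest value. Both subunits stayed past the threshold under each of the 22 alternatives run, with changes of 0.28 for Phka1 and 0.24 for Phkb under TMM-type factors.

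Phkg1 (chr5:129891125-129927390), the catalytic subunit, was measured at 284, 306, 293 and 278 TPM in Young, 204, 233, 263 and 252 TPM in Fluo-4 normal and 303, 303, 296 and 273 TPM in Fluo-4 abnormal samples. The normal fibers again lay below both other groups. Phkg1 rose from 238 ± 26.1 to 294 ± 14.4 TPM, or by 0.31 (SE 0.08, adjusted p = 0.025), between the aged groups. Its change was 0.08 (adjusted p = 0.58) with TMM-type factors, and the call was lost without Fluo-4 normal replicate 2 (adjusted p = 0.060), Fluo-4 abnormal replicate 2 (0.074) or Fluo-4 abnormal replicate 3 (0.057). The Phkg1 call was lost under 6 of the 22 alternatives in all, among them scaling without mitochondrially-encoded genes and the aged groups fitted alone. The ratio of Phkg1 to the other subunits also differed. Phkg1 TPM per Phkb TPM ran from 1.23 to 1.34 in abnormal and from 1.34 to 1.51 in normal samples, without overlap, and 1.37–1.53 in Young. On the other strand, 3035 exon bases of Phkg1 are shared with Sumf2 and 447 of Phkb with Itfg1. The library kit does not keep the strand, so that reads there cannot be told apart. Sumf2 reached 9.34 TPM and Itfg1 42.3 TPM at most. Other members share exon bases with the other strand in the same way. Ugp2 shares 950 with Vps54 (at most 15.4 TPM) and 299 with a non-coding gene (0.143 TPM). Gys1 shares 420 with Ruvbl2 (14.8 TPM) and 604 with a non-coding gene that had no listed value. Gyg shares 155 with Hltf (3.01 TPM).

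On the side of synthesis, Ugp2 moved the other way. Ugp2 (chr11:21270384-21321276) was at 412, 465, 482 and 418 TPM in Young, 511, 535, 546 and 548 TPM in Fluo-4 normal and 419, 422, 430 and 373 TPM in Fluo-4 abnormal samples. All 4 normal samples were above all 8 others. Ugp2 fell from 535 ± 17.1 to 411 ± 25.9 TPM between the aged groups, a log2 change of -0.38 (SE 0.07, adjusted p = 0.0055) that passed under each of the 22 alternatives and was -0.61 with TMM-type factors. Compared with Young, it was 0.27 in the normal fibers (adjusted p = 0.082) and -0.11 in the abnormal fibers (adjusted p = 0.37, or -0.29 with adjusted p = 0.042 under TMM-type factors). The rise in the normal fibers passed under 2 of the 22 alternatives.

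Gbe1 (chr16:70110715-70366609), which introduces the branch points, was the one member called between the normal fibers and Young. It was listed at 34.2, 29.8, 24.3 and 25.6 TPM in Young, 45.9, 60.8, 53.0 and 47.1 TPM in Fluo-4 normal and 43.2, 49.1, 29.2 and 39.5 TPM in Fluo-4 abnormal samples. The Young and normal samples did not overlap, and the abnormal samples reached into both. Gbe1 rose from 28.5 ± 4.50 TPM in Young to 51.7 ± 6.82 TPM in the normal fibers, by 0.84 (SE 0.15, adjusted p = 0.019). This call was lost without Young replicate 2, 3 or 4 or Fluo-4 normal replicate 2 or 3, with adjusted p = 0.051 to 0.068 and changes of 0.76 to 0.87. In the abnormal fibers the change against Young was 0.47 (adjusted p = 0.071). Without Fluo-4 abnormal replicate 3, whose value lay within the Young range, it was 0.62 (adjusted p = 0.018). Between the aged groups the change was -0.37 (adjusted p = 0.14), and -0.59 (adjusted p = 0.024) with TMM-type factors.

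The synthase, its primer and the phosphatase subunit passed the test in no comparison. Gys1 (chr7:45084175-45106058) was at 155, 167, 157 and 143 TPM in Young, 124, 168, 214 and 189 TPM in Fluo-4 normal and 134, 183, 177 and 143 TPM in Fluo-4 abnormal samples. The normal samples spanned the values of both other groups, with an SD of 38.1 TPM against 9.98 TPM in Young, and the change between the aged groups was -0.11 with a 95% interval of -0.42 to 0.21 (adjusted p = 0.68). Its direction turned to 0.0022 without Fluo-4 normal replicate 3. Gyg (chr3:20158406-20209481, named Gyg1 in GENCODE) was at 237, 256, 236 and 228 TPM in Young, 201, 209, 218 and 221 TPM in Fluo-4 normal and 223, 264, 279 and 242 TPM in Fluo-4 abnormal samples. Gyg thus resembled the breakdown genes in its order, the normal samples lying just under all others, with a change of 0.24 between the aged groups (SE 0.07, adjusted p = 0.056). That adjusted p was 0.018 when blocked on the replicate number of the aged samples, and also 0.018 without Fluo-4 abnormal replicate 1. In all, Gyg passed between the aged groups under 3 of the 22 alternatives. Ppp1r3a (chr6:14680679-14755331), the phosphatase subunit, was at 67.7, 70.6, 78.4 and 64.5 TPM in Young, 36.0, 66.8, 92.0 and 62.7 TPM in Fluo-4 normal and 65.1, 81.1, 79.4 and 67.9 TPM in Fluo-4 abnormal samples. The normal samples held both the lowest and the highest of its 12 values, and the adjusted p was between 0.47 and 0.90 in the 3 comparisons.

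Counted over the 9 genes, 5 changed between the Fluo-4 abnormal and Fluo-4 normal fibers, where 9.35% of all genes tested were called, and 17.9% of those with a mean of at least 5 TPM, as all 9 had. The 4 that rose were the 4 breakdown genes, against 7.36% of all genes called higher, and the 1 that fell was Ugp2, against 1.99% called lower. Of the 9, 5 were higher and 1 lower without overlap of the groups, compared with 11.5% and 2.54% of all genes (14.0% in both directions). Among the 5994 genes with a mean of at least 5 TPM, 848 were called higher and 227 lower. Of these 5994, 1208 were higher and 260 lower without overlap, and 4694 had a change above 0. The median change was 0.25 over the 9 genes, while that of all genes tested was itself 0.10, and 0.20 among those with a mean of at least 5 TPM, and 69.6% of all genes were above 0, and the members' changes are to be read against this shift. With TMM-type factors, whose median was 0, 4 of the 9 passed, namely Phka1 and Phkb as higher and Ugp2 and Gbe1 as lower. Fitting the aged groups alone left 3, as did scaling without mitochondrially-encoded genes and the fits without Fluo-4 normal replicate 2, Fluo-4 abnormal replicate 2 or Fluo-4 abnormal replicate 3. Without Fluo-4 normal replicate 1 the count was 4.

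Between the Fluo-4 abnormal and Young fibers, none of the 9 was called by limma, where 8.51% of all genes were, with 6.09% higher and 2.41% lower, and 1 of the 9 had an unadjusted p under 0.05, which 23.0% of all genes had. Phkb was the only one of the 9 whose groups did not overlap, in the higher direction, where 12.2% of all genes were higher and 3.95% lower without overlap (16.2% in all). Of the 5994 genes with a mean of at least 5 TPM, 14.8% were called and 2120 had an unadjusted limma p under 0.05. Without overlap, 1155 of them were higher and 432 lower, and their median change was 0.12. The 9 log2 changes ran from -0.11 for Ugp2 to 0.47 for Gbe1 with a median of 0.06, beside 0.07 for all genes tested, and their direction depended on the scaling, with 8 above 0 as deposited, beside 66.4% of all genes, 6 with scaling without mitochondrially-encoded genes and 3 with TMM-type factors. Between the Fluo-4 normal and Young fibers, 1 of the 9 was called, Gbe1, which was higher, against 1.15% of all genes (0.561% higher and 0.589% lower), and 7 had an unadjusted p under 0.05, which 12.9% of all genes had. Without overlap, Gbe1 and Ugp2 were higher and Pygm, Phkb, Phkg1 and Gyg lower, beside 3.03% of all genes higher and 4.96% lower (7.99% in all). The median change was -0.20 over the 9 genes, -0.02 over all genes tested and -0.07 over the 5994 with a mean of at least 5 TPM. Of these 5994, 2.24% were called and 1148 had an unadjusted limma p under 0.05. Without overlap, 212 of them were higher and 532 lower. In this comparison the 4 breakdown genes had changes of -0.33 to -0.29, none past the threshold, and the 3 scalings each gave 3 of the 9 above 0 and 6 below, beside 43.5% of all genes above 0 as deposited. Since the comparisons share samples, their values are given side by side and not as separate support.

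**Figure D2:**
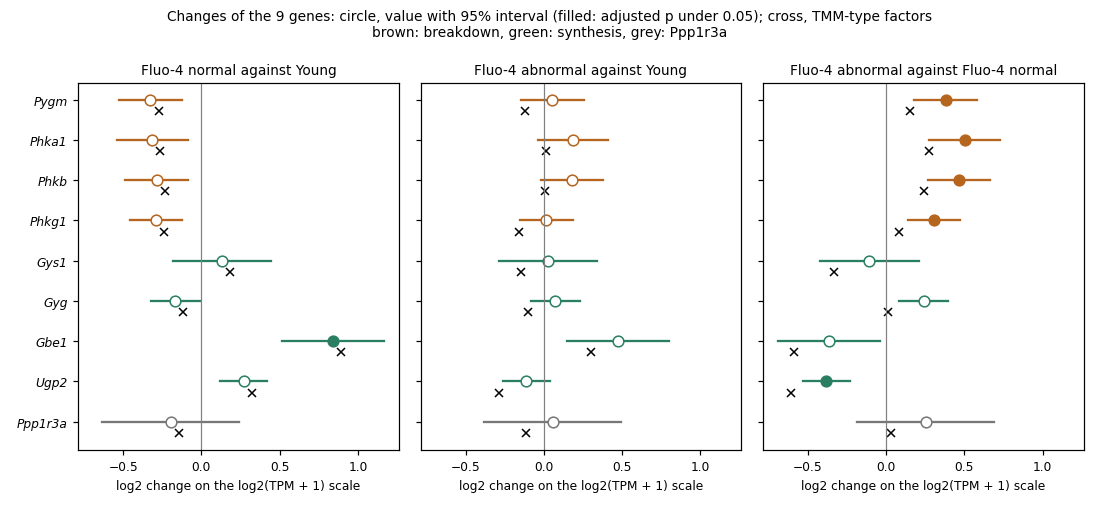
Log2 change on the log2(TPM + 1) scale (x axis) of each of the 9 genes (y axis) in the 3 comparisons, with its 95% interval as a line and the change under TMM-type factors as a cross. In the comparison of Fluo-4 abnormal with Fluo-4 normal fibers the 4 breakdown genes, at 0.31 to 0.50, and Ugp2, at -0.38, are filled as past an adjusted p of 0.05, and the crosses lie to the left of the circles.

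Ratios within a sample do not depend on scaling, and they separated the Fluo-4 normal fibers from both other groups. The mean log2 value of the 4 synthesis genes minus that of the 4 breakdown genes was -1.59, -1.65, -1.73 and -1.59 in Young, -1.02, -1.02, -1.10 and -1.13 in Fluo-4 normal and -1.69, -1.55, -1.65 and -1.64 in Fluo-4 abnormal samples. All 4 normal samples lay above all 8 others, which shared one range. The group means were -1.64 ± 0.07 in Young, -1.06 ± 0.06 in normal and -1.63 ± 0.06 in abnormal fibers (SD, n = 4), so that abnormal and normal differed by -0.57 and normal and Young by 0.57, which is given as a description. With Ppp1r3a counted among the synthesis genes the differences were -0.49 and 0.48.

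In linear terms, there were 3.81 ± 0.09 TPM of Gys1 for each 100 TPM of Pygm in Young, 5.27 ± 0.68 in Fluo-4 normal and 3.74 ± 0.34 in Fluo-4 abnormal fibers. The normal samples ran from 4.36 to 6.00 and the others from 3.46 to 4.14. The summed level of the breakdown genes was 4765 ± 324 TPM in Young, 3823 ± 420 in normal and 4978 ± 297 in abnormal fibers, most of it Pygm, and that of the synthesis genes 867 ± 49.2, 973 ± 65.2 and 863 ± 62.8 TPM. On average the normal fibers thus held less of the summed breakdown and more of the summed synthesis transcripts than either other group. The synthesis sums overlapped, at 814–918 TPM in Young, 882–1031 in normal and 798–918 in abnormal samples. Ugp2 was the largest part of them, with means of 444, 535 and 411 TPM in this order of groups. Gys1 and Gbe1 were also highest in the normal fibers on average, whereas Gyg was lowest there, at 239, 213 and 252 TPM.

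**Figure D3:**
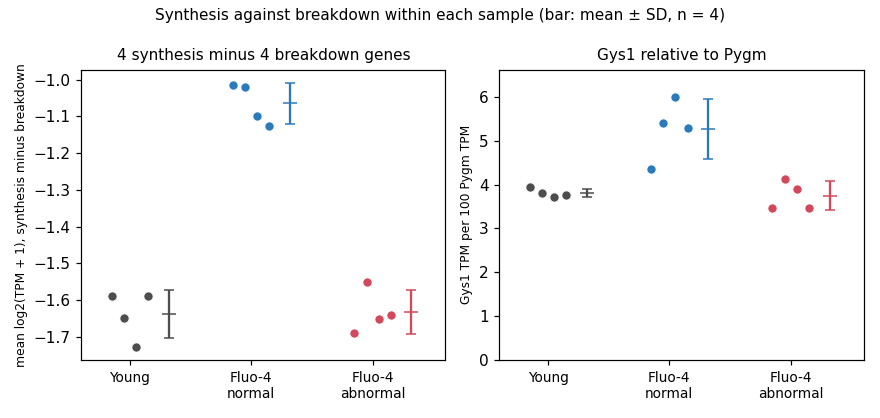
Left, mean log2(TPM + 1) of the 4 synthesis genes minus that of the 4 breakdown genes (y axis, not starting at 0) in each sample; right, Gys1 TPM per 100 Pygm TPM (y axis, from 0), with the mean and SD of each group (n = 4). In both panels the Fluo-4 normal samples lie above all Young and Fluo-4 abnormal samples.

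Each of the 16 pairs of a synthesis with a breakdown gene was also set against each other. Between the abnormal and normal fibers the ratio was lower without overlap in 12 pairs, and the 4 that overlapped were those with Gyg. The differences ranged from -0.88 for Ugp2 to Phka1 to -0.07 for Gyg to Phkg1. From Young to normal, 13 pairs were higher without overlap, by up to 1.17 for Gbe1 to Pygm, and the 3 others were pairs of Gyg. Between abnormal and Young fibers 14 pairs overlapped and 2 were lower, both with Ugp2. These pairs share genes and are not independent. How often pairs among all genes separate in this way was not worked out. The counts of pairs are therefore a description, and whether they are unusual was not tested.

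**Figure D4:**
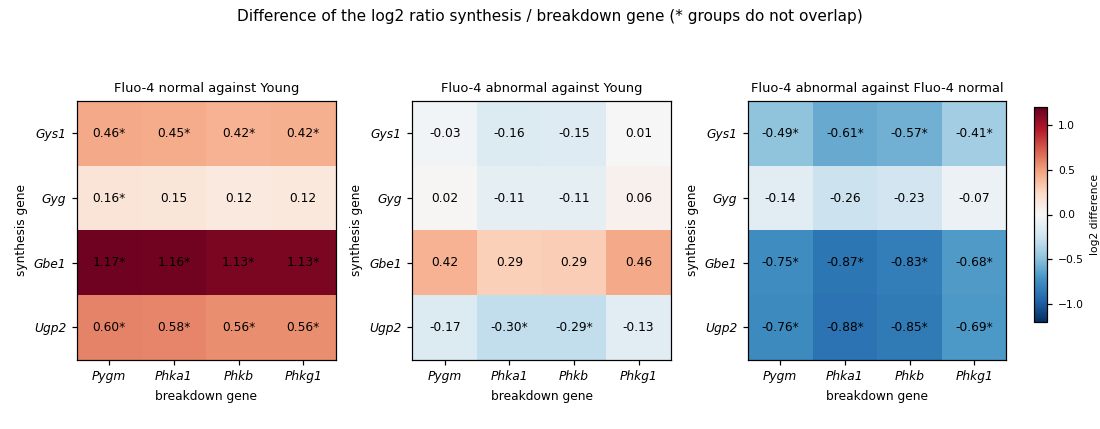
Difference between groups in the log2 ratio of a synthesis gene (y axis) to a breakdown gene (x axis), 1 panel for each comparison, with colour for the size and an asterisk where the groups do not overlap. The row of Gyg is near 0 in all panels, between -0.26 and 0.16, whereas the rows of Gys1, Gbe1 and Ugp2 turn from higher in the Fluo-4 normal against Young panel to lower in the Fluo-4 abnormal against Fluo-4 normal panel.

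A further 41 genes of the pathway were listed, of which 40 could be tested and Ppp1r3g could not. Between the abnormal and normal fibers 10 of these 40 rose and 0 fell, beside 7.36% of all genes called higher and 1.99% lower. Of the 40, 34 were above 0, beside 69.6% of all genes, and their median change was 0.25. The median of all genes tested was 0.10, and 0.20 among those with a mean of at least 5 TPM. The changes of the 40 are to be read against this shift. Blocked on the replicate number of the aged samples, 13 rose, the 10 and 3 others with adjusted p = 0.013 to 0.037. Of 10 other breakdown genes, 4 rose, among them Calm3, a gene for the Ca2+-binding subunit of phosphorylase kinase, and Gaa, the lysosomal glucosidase. Of 7 other synthesis genes, 1 rose, Pgm1, which interconverts glucose 1-phosphate and glucose 6-phosphate and so serves both directions. Of 23 regulators, 5 rose. With TMM-type factors 1 gene was called higher and 1 lower, and the fit of the aged groups alone called 1, Prkag3. Leaving out 1 library gave 2 to 9 calls, with 2 without Fluo-4 abnormal replicate 2, 4 without Fluo-4 abnormal replicate 3, 5 without Fluo-4 normal replicate 1, and 6 without Fluo-4 normal replicate 2 or Fluo-4 abnormal replicate 4.

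Prkag3 encodes the gamma subunit of AMP-activated protein kinase found in fast glycolytic muscle. It was at 83.3, 119, 112 and 79.4 TPM in Young, 46.1, 70.5, 65.6 and 73.0 TPM in Fluo-4 normal and 127, 189, 156 and 172 TPM in Fluo-4 abnormal samples. No 2 groups overlapped, normal being lowest and abnormal highest. Prkag3 rose by 1.33 between the aged groups (SE 0.17, adjusted p = 0.00077), the largest change among these pathway genes in that comparison, and by 0.71 against Young (adjusted p = 0.022), and it was 1.10 and 0.54 with TMM-type factors, both past the threshold. Against Young the normal fibers stood at -0.62 (adjusted p = 0.11, or -0.57 with adjusted p = 0.037 under TMM-type factors). It shares 1088 exon bases with Cyp27a1 on the other strand, which reached 97.5 TPM, so that part of its reads could belong to either.

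Pgm1 was lowest in the normal fibers, with 823, 940, 899 and 783 TPM in Young, 643, 598, 647 and 740 TPM in normal and 808, 793, 756 and 815 TPM in abnormal samples. It fell by 0.39 in normal fibers against Young (adjusted p = 0.030) and rose by 0.27 from normal to abnormal fibers (adjusted p = 0.041). These 2 calls for Pgm1 did not hold with TMM-type factors, at adjusted p = 0.099 and 0.85. Calm3 likewise fell by 0.73 in normal fibers against Young (adjusted p = 0.027) and rose by 0.60 in abnormal against normal fibers (adjusted p = 0.019), although the aged groups overlapped. Under TMM-type factors the rise of Calm3 was 0.37 (adjusted p = 0.096), and with only the 2 groups compared neither call held (adjusted p = 0.060 and 0.081).

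In the abnormal fibers against Young, 5 of the 40 genes rose, Ppp1r1a, Ppp1r3c, Ppp1r3e, Prkag3 and Stbd1, and 0 fell, against 8.51% called among all genes. Ppp1r1a, inhibitor 1 of protein phosphatase 1, was at 47.8, 33.9, 36.7 and 47.3 TPM in Young, 75.0, 63.3, 82.0 and 83.7 TPM in normal and 71.2, 69.6, 84.3 and 81.8 TPM in abnormal samples. Both aged groups lay above Young and covered each other, with rises of 0.88 (adjusted p = 0.00097) in abnormal and 0.87 (adjusted p = 0.0049) in normal fibers. Ppp1r3c, another subunit that targets the phosphatase to glycogen, rose by 0.73 from 72.3 ± 18.8 to 118 ± 12.8 TPM in abnormal fibers (adjusted p = 0.013). Stbd1, which tethers glycogen for transport to lysosomes, was 34.2–34.5 TPM in the 4 Young, 39.9–58.0 TPM in the normal and 51.2–70.6 TPM in the abnormal samples. Both aged groups lay above Young and overlapped each other. Stbd1 rose by 0.70 in abnormal fibers (adjusted p = 0.0054), with a change of 0.46 in normal fibers (adjusted p = 0.11) and of 0.24 between the aged groups (adjusted p = 0.26). The fifth besides Prkag3, Ppp1r3e, rose from 0.19 ± 0.13 to 0.89 ± 0.35 TPM, a level at which a change rests on few reads. Ppp1r1a, Ppp1r3c, Ppp1r3e, Prkag3 and Stbd1 passed with TMM-type factors as well. In normal fibers against Young, where 1.15% of all genes were called, 1 of the 40 rose, Ppp1r1a, and 2 fell, Calm3 and Pgm1.

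**Figure D5:**
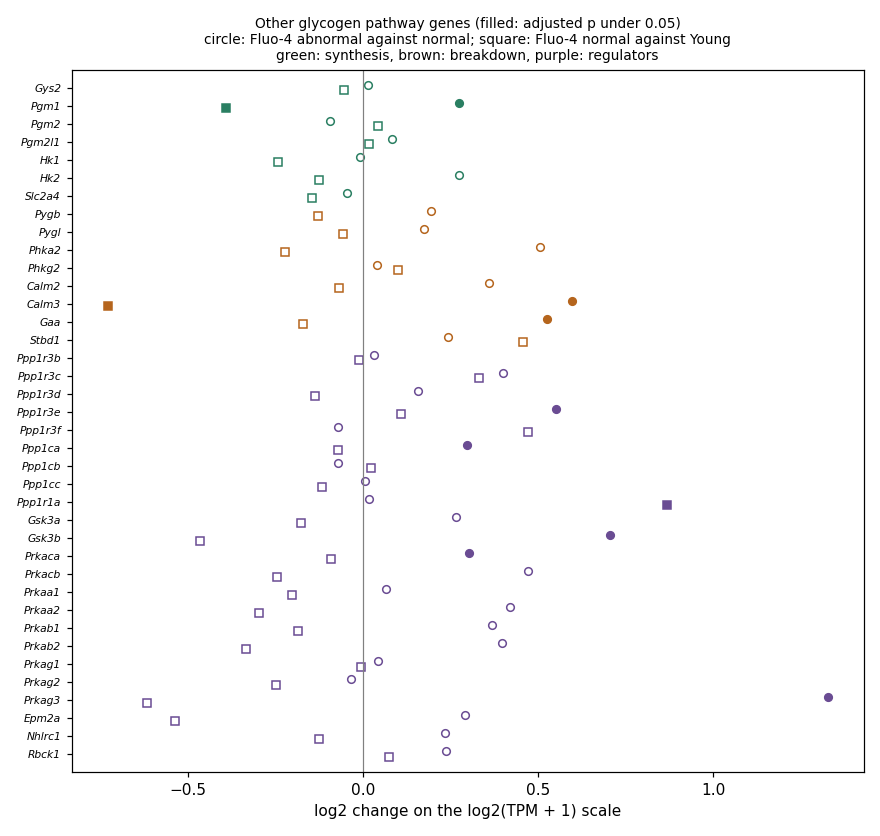
Log2 change on the log2(TPM + 1) scale (x axis) of 38 other pathway genes (y axis) for Fluo-4 abnormal against Fluo-4 normal (circles) and Fluo-4 normal against Young (squares), filled where the adjusted p was under 0.05. Circles lie above 0 for 32 of the 38 genes drawn, beside 69.6% of all genes tested, with Prkag3 farthest at 1.33. Ppp1r1a is the square farthest to the right at 0.87.

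The isoforms used by other tissues were nearly silent, with the exception of Phkg2. Pygb and Pygl, the brain and liver phosphorylases, and Gys2, the liver synthase, were each under 1 TPM in all samples, and Phka2 reached 2.67 TPM at most. Phkg2, the other catalytic subunit, was at 5.31–8.35 TPM, and neither Phka2 nor Phkg2 passed a test between the aged groups (adjusted p = 0.095 and 0.89).

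Myosin heavy chain transcripts, which mark fiber type, were set beside these results. Myh4, the myosin heavy chain of the fastest fibers, made up 98.9–99.7% of the 4 myosin heavy chain transcripts in the abnormal samples, 93.7–99.2% in the normal samples and 96.9–98.6% in Young. Myh4 itself rose from 8206 ± 1478 to 13013 ± 2488 TPM between the aged groups, by 0.66 (adjusted p = 0.020), and Myh1 had a change of -1.81 (adjusted p = 0.087). With the Myh4 share as a covariate, Phka1 (0.60), Phkb (0.63) and Phkg1 (0.41) were still called higher and Ugp2 (-0.38) lower in the abnormal fibers, whereas Pygm kept a change of 0.42 with adjusted p = 0.082. Without the covariate these changes were 0.50, 0.47, 0.31, -0.38 and 0.38. Gys1 turned to 0.13 (adjusted p = 0.73), and Gbe1 in normal fibers against Young stood at 0.72 (adjusted p = 0.056). The part of fiber type in these results was not tested.

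Across the 12 samples, the profile of Pygm was closest to those of Me1, malic enzyme (Pearson r = 0.99), Clcn1, the chloride channel of the muscle membrane (0.95), and Ptov1 (0.95), among 5993 genes with a mean of at least 5 TPM. The profile of Gys1 was closest to Tbc1d1, a regulator of glucose transport (0.91), Ppargc1a, a coactivator of mitochondrial genes (0.89), and Acss2, an acetyl-CoA synthetase (0.89). Within the pathway, Pygm correlated at 0.94 with Phkg1, 0.92 with Phkb and with Gyg, and 0.87 with Phka1, but at 0.26 with Gys1, -0.57 with Gbe1 and -0.61 with Ugp2. Gys1 went most closely with Ppp1r3a, at 0.73. These correlations are descriptions over 12 samples that share their groups and the scaling of each sample.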

How the data were processed

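RNA-seq values of single EDL fibers from 12 samples were used, 4 per group. Per the labels, the authors started from 10 ng of RNA and used the SMART-Seq v4 kit. Per the study's methods, they ran DRAGEN 4.3 against GRCm39. They deposited TPM, which sum to 1000000 in each sample. The annotation release is not given in the sources used here. Counts were not used, so that depth is unknown and counting intervals are not given. Young mice were taken from one supplier and aged mice from another.

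Of 55367 symbols, 114 were on several lines and were summed; 49848 matched GENCODE vM39, 256 a synonym and 2374 only RefSeq, and 2889 had no match. Protein-coding and mitochondrially-encoded genes with a mean of at least 0.02 TPM in 1 group or more were tested, 14426 in all. Values were taken as log2(TPM + 1) and fitted over the 3 groups with limma 3.58.1 (R 4.3.3), a trended prior variance and Benjamini-Hochberg adjustment at 0.05 over all 14426. A fold on this scale understates the change of low genes. A replicate number marked samples that deviated together in the aged groups, with correlations of 0.30 to 0.44 for the same number against -0.36 to 0.23 for different numbers (5994 genes), so the fit with this number as a block among the aged samples is given where it changes a call between the aged groups. Young samples were not matched to it. The alternatives were TMM-type factors (trimming 30% and 5%), scaling that left out mitochondrially-encoded genes, the filter dropped, a filter of 5 TPM, a pseudocount of 0.1 TPM, non-coding genes included, the replicate block, only the 2 groups compared, sample weights, the Myh4 share as a covariate and each library left out in turn. The script was tested on simulated data. Copies of the transcripts were looked for by BLAST 2.17.0 at 95% identity over at least 100 bases, and none was found for the 9 genes other than the overlap of Phkg1 with Sumf2.

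The 9 genes and the pathway lists were chosen with earlier results of these data known. Named besides them were the genes of each pathway list with the smallest p past the threshold (4 at most), the 3 genes most like Pygm and the 3 most like Gys1 and the myosin heavy chains. Other genes named (Pygb, Pygl, Gys2, Phka2, Phkg2, Ppp1r3g and the overlapping genes) were chosen after their values were seen. Of the pathway genes set to be named, 2 are counted but not reported by name here. Pathway genes named in none of these ways, some of them called, are counted only.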

Additional observations from a re-analysis of the deposited data

Results flagged for a closer look

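Phkb in Fluo-4 normal replicate 1, at 134 TPM, lay far from the other 3 normal samples, which were at 174 to 181 TPM. The gap took up 0.86 of the range of the group. It was the only one so distant among 33 groups of 4 values examined, where chance gives about 1 in 20. The same library had the lowest scaling factor of the 12, 0.809, and the part of this in the value of Phkb was not tested. Without it the rise of Phkb in abnormal fibers was 0.37 (limma adjusted p = 0.0093).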

How the results depend on the processing

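Between abnormal and normal fibers, the 5 changed members became 3 with scaling without mitochondrially-encoded genes, 3 with only the 2 groups compared, and 3 to 6 when 1 library was left out. The 10 other pathway genes became 2 with TMM-type factors, 6 with scaling without mitochondrially-encoded genes, 5 with non-coding genes included, 1 with only the 2 groups compared, 6 with sample weights, 5 with the Myh4 share, and 2 to 9 with 1 library left out. Against Young, the 0 changed members of the abnormal fibers became 1 with TMM-type factors (Ugp2), a filter of 5 TPM, the replicate block or the Myh4 share (Gbe1), and 0 to 1 with 1 library left out, and the 5 other genes became 9 with the replicate block. In normal fibers against Young, the 1 changed member became 3 with a filter of 5 TPM, 2 with the replicate block, 2 with sample weights, 0 with the Myh4 share and 0 to 1 with 1 library left out, and the 3 other genes became 5 with the replicate block, 0 with only the 2 groups compared and 1 to 3 with 1 library left out. Counting Ppp1r3a among synthesis gave scores of -0.486 and 0.480. Direction turned, at changes that passed no test, for Gys1 between the aged groups (0.13 with the Myh4 share, 0.0022 without Fluo-4 normal replicate 3, -0.26 to 0.0022 with 1 library left out); for Gys1 in abnormal fibers against Young (-0.15 with TMM-type factors, -0.0042 without mitochondrially-encoded genes, -0.045 to 0.10 with 1 library left out, turned by leaving out Young replicate 4 at -0.014 and Fluo-4 abnormal replicates 2 at -0.045 and 3 at -0.027); for Gyg (-0.10), Pygm (-0.12), Phkg1 (-0.16) and Ppp1r3a (-0.11) there with TMM-type factors; for Phkg1 there without mitochondrially-encoded genes (-0.013) and without Young replicate 4 (-0.0021, range -0.0021 to 0.052 with 1 library left out); and for Ppp1r3a in normal fibers against Young without Fluo-4 normal replicate 1 (0.053, range -0.39 to 0.053). The cause was not tested. In all genes, the 1349 called between the aged groups were 852 with TMM-type factors, of which 308 were higher against 1062 as deposited, 927 without mitochondrially-encoded genes, 821 with the Myh4 share and 2281 with the replicate block. The block called 1998 genes in abnormal and 512 in normal fibers against Young, compared with 1227 and 166. Its block covers the aged samples alone and takes out part of their spread, so that calls against Young gained by it (Gbe1 in abnormal, Pygm in normal fibers) are not read as changes. Between the aged groups the block changed the call of Gyg and of none of the other 8 genes. Depth is unknown, which limits genes of a few TPM such as Ppp1r3e most.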
